A study of Homo sapiens with 4 samples.

Results

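The cytosolic chaperonin TRiC, also called CCT, is built from 8 subunits, and the genes TCP1, CCT2, CCT3, CCT4, CCT5, CCT6A, CCT7 and CCT8 that encode them are described here across RNA-seq libraries of HGC-27 cells. They were chosen by symbol, after the Ensembl identifiers of the expression table had been matched to gene names. They are 8 of the 62443 genes listed, and all 8 were among the 7588 genes that were expressed highly enough to be tested. HGC-27 is a human gastric cancer cell line. GLUP is a peptide that the study designed from the part of the cofactor VGLL4 that binds the transcription factor TEAD4, in order to draw TEAD4 into repressive condensates. The Con group holds 2 libraries of control cells, and the GLUP group holds 2 libraries of cells that received GLUP at 10 μg/ml. The duration is given as 12 h in one place and as 48 h in another, and the control as the stocking buffer of the peptide in the methods and as no treatment in the labels. The comparison asks how the peptide altered the transcriptome of these cells.

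TRiC consists of a pair of stacked rings, each with every subunit at a fixed place, and it folds newly made proteins in its central cavity while it hydrolyses ATP. Actin and the tubulins cannot reach their folded state without it, and regulators such as the mitotic activator CDC20, the kinase PLK1 and the mTOR partner MLST8 also pass through it. Prefoldin carries unfolded actin and tubulin to the chaperonin, phosducin-like proteins adjust its activity, and the tubulin cofactors TBCA to TBCE join released tubulin into dimers. As every ring needs each subunit, the balance among the subunit mRNAs is of interest beside their sum.

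Values are FPKM, fragment counts scaled to gene length and to library size, so levels of different genes can be set side by side per length. The FPKM of all genes summed to between 909735 and 949919 per library. The depth is unknown, because low values show no steps of whole reads, and no counting error can be given. Across the genes tested, Pearson's r was 0.986 between the GLUP libraries and 0.933 between the Con libraries, and Con replicate 1 lay closer to the GLUP libraries (0.952 and 0.957) than to Con replicate 2, which stood apart from both GLUP libraries at 0.873 and 0.886. The median absolute difference between replicates was 0.48 on the log2 scale in Con and 0.20 in GLUP. Of the epithelial markers, EPCAM and CDH1 stayed at or below 0.124 FPKM and KRT8, KRT18 and KRT19 lay between 0.764 and 2.25 FPKM, whereas the mesenchymal marker VIM stood at 293 to 387 FPKM, FN1 at 0.655 to 3.25 FPKM and CDH2 at or below 0.0508 FPKM. The fibroblast genes DCN and LUM were at 20.1 to 41.3 and at 59.0 to 76.7 FPKM. COL1A1 was at 2.97 to 6.90 FPKM and COL1A2 at 0.246 to 0.443 FPKM. The immune genes PTPRC, CD3E and CD14 stayed at or below 0.0394 FPKM, the endothelial gene CDH5 was listed at 0 and VWF was at or below 0.0045 FPKM.

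Promoter sequences are shown for the 2 subunits with the lowest fold changes, CCT8 and TCP1, and the 2 with the highest, CCT3 and CCT7. Each window runs from 250 bases before to 50 bases after the start of the gene (RefSeq, GRCh38.p14), and 7 of the 8 subunits, all but CCT6A, were matched in that collection. The windows are chr21:29073599-29073898 on the minus strand for CCT8, chr6:159789553-159789852 on the minus strand for TCP1, chr1:156338243-156338542 on the minus strand for CCT3 and chr2:73234058-73234357 on the plus strand for CCT7. Capitals mark the CCAAT box, the Sp1 box with the letters GGGCGG and the paired heat shock units with the letters GAANNTTC, each on either strand.
CCT8: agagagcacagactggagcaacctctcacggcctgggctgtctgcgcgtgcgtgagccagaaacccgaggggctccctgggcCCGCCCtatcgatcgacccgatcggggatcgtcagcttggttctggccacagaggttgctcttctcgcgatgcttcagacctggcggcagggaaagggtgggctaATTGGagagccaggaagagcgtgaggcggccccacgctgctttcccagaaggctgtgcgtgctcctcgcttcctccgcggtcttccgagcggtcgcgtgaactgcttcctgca
TCP1: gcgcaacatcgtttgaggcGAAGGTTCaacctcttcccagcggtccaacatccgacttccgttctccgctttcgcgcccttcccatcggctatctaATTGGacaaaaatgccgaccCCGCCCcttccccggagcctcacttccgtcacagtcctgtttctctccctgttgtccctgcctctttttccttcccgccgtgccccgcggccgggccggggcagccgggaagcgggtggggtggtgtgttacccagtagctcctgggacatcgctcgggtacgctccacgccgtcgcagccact
CCT3: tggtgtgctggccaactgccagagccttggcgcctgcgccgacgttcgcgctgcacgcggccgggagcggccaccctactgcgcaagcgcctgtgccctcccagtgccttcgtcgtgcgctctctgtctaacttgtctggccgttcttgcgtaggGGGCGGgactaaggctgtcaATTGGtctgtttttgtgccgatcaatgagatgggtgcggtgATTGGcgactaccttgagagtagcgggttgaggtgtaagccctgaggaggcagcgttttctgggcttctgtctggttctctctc
CCT7: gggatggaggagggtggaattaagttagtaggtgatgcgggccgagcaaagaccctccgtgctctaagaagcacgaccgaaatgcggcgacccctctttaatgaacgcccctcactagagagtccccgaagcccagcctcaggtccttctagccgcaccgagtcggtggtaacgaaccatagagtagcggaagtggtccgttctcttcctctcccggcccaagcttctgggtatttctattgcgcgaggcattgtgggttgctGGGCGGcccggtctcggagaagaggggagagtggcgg
Each of the 4 windows holds 1 Sp1 box, a motif found in 45.0% of 35116 human windows of the same length. The CCT3 window holds CCAAT at 2 places, those of CCT8 and TCP1 at 1 place each and that of CCT7 at none, against 34.6% of all windows with at least 1 match. The heat shock letters GAANNTTC occur in the TCP1 window and in 6.77% of all windows. GGAATG, the core letters of the TEAD motif, are in none of the 4 windows, and 14.0% of all windows hold them on either strand. The GC content of the windows was 64.3% for CCT8, 63.3% for TCP1, 61.3% for CCT3 and 59.3% for CCT7, against a median of 58.3%. These matches describe the letters of the windows and say nothing of binding.

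The subunit mRNAs did not keep 1 common direction. CCT3 and CCT7 were higher in both GLUP libraries than in both Con libraries, by 2.16 and 2.20 times in mean FPKM, whereas CCT8 was lower in both, at 0.479 times the Con mean. TCP1, CCT6A, CCT4 and CCT5 were also lower in both GLUP libraries, by smaller steps, and CCT2 overlapped between the groups. None of the 8 differences passed an adjusted p of 0.05 in limma, a linear model per gene that shares its estimate of spread among genes. The methods of the study speak of biological replicates, without stating how these were set up. The labels do not state that replicates came from separate cultures, so p-values may still measure technical spread only. In bulk RNA, fewer cells that express a gene and less RNA per cell cannot be told apart.

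**Figure D1:**
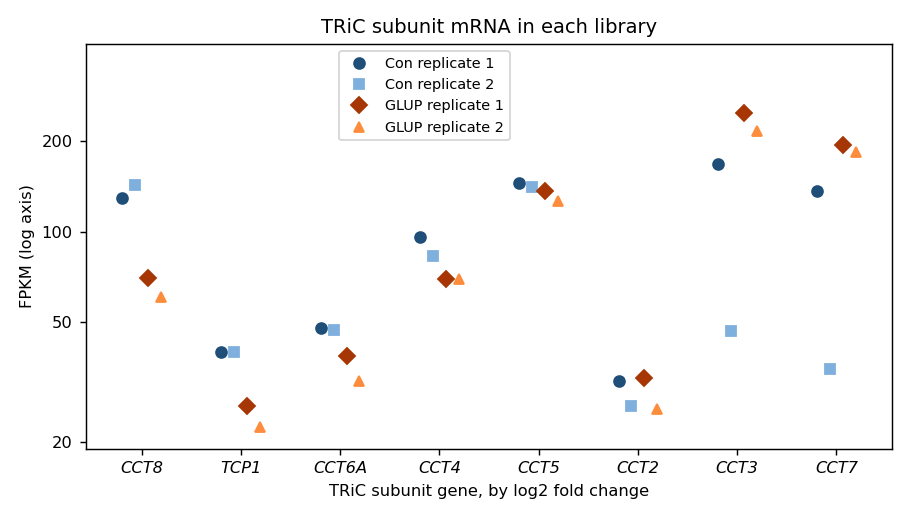
FPKM of the 8 TRiC subunit genes (log axis) in each of the 4 libraries, ordered from left to right by log2 fold change. Both GLUP libraries lie below both Con libraries for CCT8, TCP1, CCT6A, CCT4 and CCT5 and above them for CCT3 and CCT7, and Con replicate 2 lies far below the other libraries for CCT3 and CCT7.

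CCT8, the theta subunit (GRCh37 chr21:30428126-30446118, minus strand), had 129 and 143 FPKM in Con and 69.9 and 60.5 FPKM in GLUP. Both GLUP values were far below both Con values, and the replicates of each group lay close together. The means were 136 ± 9.94 FPKM in Con and 65.2 ± 6.64 FPKM in GLUP (SD, n = 2 each), and the log2 fold change on the log2(FPKM + 1) scale was −1.05 (SE 0.32, 95% interval −1.84 to −0.26, adjusted p = 0.111 from limma, by the method of Benjamini and Hochberg over all genes tested). Its unadjusted p of 0.0177 (limma) was the only 1 under 0.05 among the subunits. All genes tested had a median log2 fold change of −0.36, so relative to it CCT8 was lower by a log2 difference of −0.70.

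TCP1 (chr6:160199530-160210735, minus strand), the alpha subunit and the first of the family to be described, had 39.8 FPKM in both Con libraries and 26.3 and 22.4 FPKM in GLUP. The groups did not overlap, and the means were 39.8 ± 0.00297 and 24.4 ± 2.72 FPKM (SD, n = 2 each). Its log2 fold change was −0.69 (SE 0.32, 95% interval −1.47 to 0.09, adjusted p = 0.190 from limma) and lay −0.33 from the median of all genes. ACAT2, the gene of a cytosolic thiolase of cholesterol synthesis, overlaps TCP1 on the opposite strand over 454 exon bases, 9.30% of those of TCP1. ACAT2 had 123 and 122 FPKM in Con and 39.2 and 47.2 FPKM in GLUP. Whether reads were counted by strand is not stated, so the part that ACAT2 reads may have in the TCP1 values was not tested.

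CCT6A (chr7:56119378-56131682, plus strand), the zeta subunit of most tissues, had 47.8 and 47.2 FPKM in Con and 38.5 and 31.96 FPKM in GLUP. The GLUP libraries were both lower, with a log2 fold change of −0.43 (SE 0.32, 95% interval −1.22 to 0.37, adjusted p = 0.370 from limma). CCT6P1, a pseudogene of this subunit whose reads may be shared with it, stood at 3.89 and 3.72 FPKM in Con and at 1.94 and 1.97 FPKM in GLUP. CCT4 (chr2:62095220-62115806, minus strand), the delta subunit, which contacts actin, had 96.0 and 83.1 FPKM in Con and 69.7 and 69.6 FPKM in GLUP. Again both GLUP libraries were lower, and the log2 fold change of −0.35 (SE 0.32, 95% interval −1.14 to 0.43, adjusted p = 0.448 from limma) lay next to the median of all genes.

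CCT5 (chr5:10250041-10266501, plus strand), the epsilon subunit, known from an inherited sensory neuropathy, had 145 and 141 FPKM in Con and 137 and 126 FPKM in GLUP. Its groups lay next to each other without overlap, at a log2 fold change of −0.12 (SE 0.31, 95% interval −0.89 to 0.65, adjusted p = 0.801 from limma). CCT2 (chr12:69979206-69995350, plus strand), the beta subunit, had 31.9 and 26.3 FPKM in Con and 32.7 and 25.8 FPKM in GLUP. The highest and the lowest CCT2 values were both in GLUP libraries. Its log2 fold change was 0.00 (SE 0.33, 95% interval −0.82 to 0.83, adjusted p = 0.996 from limma), an interval that leaves room for changes of over 1.5-fold in either direction.

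CCT3 (chr1:156278759-156337664, minus strand), the gamma subunit, sits between CCT6A and TCP1 in the ring. It had 167 and 46.9 FPKM in Con and 248 and 216 FPKM in GLUP. CCT7 (chr2:73460548-73480149, plus strand), the eta subunit between CCT5 and CCT8, had 137 and 34.9 FPKM in Con and 194 and 184 FPKM in GLUP. For both genes all GLUP values exceeded all Con values, but the Con libraries lay far apart, with Con replicate 1 at 3.56 times Con replicate 2 for CCT3 and at 3.92 times for CCT7. In absolute size, these differences between Con libraries exceeded those of 96.0% and 96.8% of the genes tested. The CCT3 means were 107 ± 85.0 and 232 ± 22.5 FPKM, and those of CCT7 85.8 ± 72.0 and 189 ± 7.44 FPKM (SD, n = 2 each). The log2 fold change was 1.37 for CCT3 (SE 0.62, 95% interval −0.16 to 2.90, adjusted p = 0.185 from limma). For CCT7 it was 1.43 (SE 0.65, 95% interval −0.17 to 3.04, adjusted p = 0.187 from limma). Relative to the median of all genes, these log2 fold changes were higher by 1.73 and 1.79, and they exceeded those of 97.0% and 97.4% of the genes tested.

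The size of the CCT3 and CCT7 differences rested on the Con library used. Without Con replicate 2 the log2 fold change was 0.46 for each gene, and without Con replicate 1 it was 2.28 for CCT3 (adjusted p = 0.00249 from limma) and 2.40 for CCT7 (adjusted p = 0.00248 from limma). CCT8 kept its size, at −1.13 without Con replicate 1 (adjusted p = 0.00834 from limma) and −0.98 without Con replicate 2 (adjusted p = 0.0331 from limma). TCP1 stood at −0.69 in both cases, with an adjusted p of 0.0374 from limma without Con replicate 1. In these fits the lone Con library is assumed to vary as the GLUP libraries do, which were close to each other. They called 53.2% of all genes tested without Con replicate 1 and 18.7% without Con replicate 2, so passing there sets no subunit apart from other genes.

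The counts over the subunits are given beside the share of all genes that met the same rule, which shows how common each pattern was in these libraries. Both GLUP libraries lay below both Con libraries for 5 of the 8 subunits and for 49.7% of all genes tested. The opposite held for 2 subunits and for 17.5% of all genes. The log2 fold change was below 0 for 5 of the 8 and for 66.7% of all genes. It was over 1 for CCT3 and CCT7 and for 6.83% of all genes, and under −1 for CCT8 and for 16.3% of all genes. With an adjusted p under 0.05 (limma) there were 0 subunits and 0.0264% of all genes, that is 2 genes, and with an unadjusted p under 0.05 there were 1 subunit and 31.7% of all genes. The median over the subunits was −0.24, against −0.36 over all genes. It was 0.11 after centring and 0.32 after GC correction, against −0.01 and 0.00 over all genes. The log2 fold changes of the subunits spanned 2.49 with an SD of 0.91, against an SD of 0.80 over all genes. Without CCT3 and CCT7 the other 6 spanned 1.05. The span over the 8 was 1.44 without Con replicate 2, 3.53 without Con replicate 1 and 1.975 with GC correction.

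**Figure D2:**
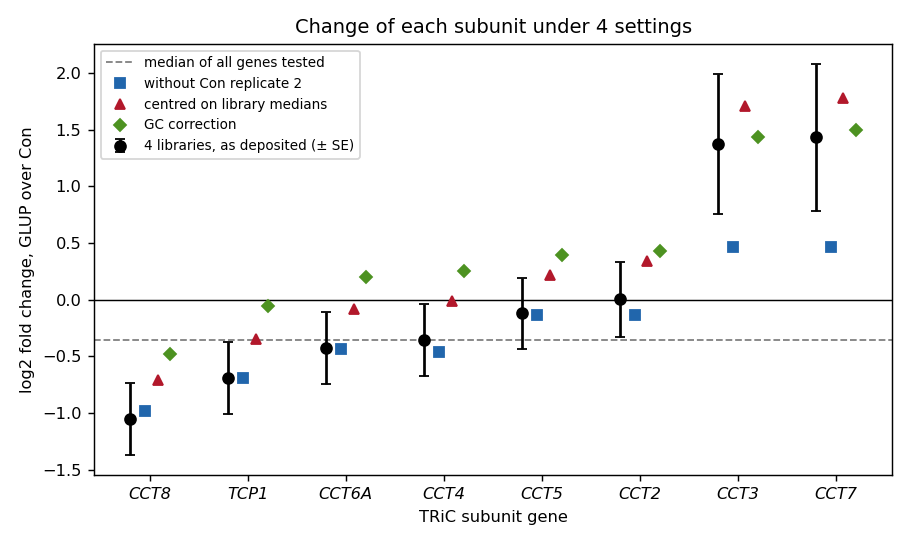
Log2 fold change (GLUP over Con, log2(FPKM + 1) scale) of each TRiC subunit as deposited (black, ± SE), without Con replicate 2, after centring each library on its median and after GC correction, with the median of all genes tested as a dashed line. CCT8 lies lowest and CCT3 and CCT7 highest in each of the 4 settings, and CCT2, CCT4, CCT5 and CCT6A lie on both sides of 0.

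Which side of 0 the middle subunits lay on depended on the scale. With each library centred on its own median, CCT5 turned to a log2 fold change of 0.22, CCT4 stood at −0.01, and CCT8, CCT3 and CCT7 stood at −0.71, 1.71 and 1.78. Under quantile normalization CCT5 was at 0.10, and CCT8, CCT3 and CCT7 were at −0.82, 1.58 and 1.70. CCT3 and CCT7 were above 0 and CCT8 was below 0 in every setting run.

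The fold changes of all genes followed GC content, with a Spearman rho of 0.58 over 7570 genes, which share their libraries and are not independent replicates. The longest annotated transcripts of TCP1, CCT6A, CCT4 and CCT8 have GC contents of 42.3%, 42.5%, 42.9% and 43.4%, in the second lowest of 5 GC bins with 1514 genes each, whose median log2 fold change was −0.64. CCT5 and CCT2, at 44.5% and 45.9%, fell into the middle bin, with a median of −0.41. CCT3 and CCT7, both at 51.3%, fell into the next bin, with a median of 0.02 and quartiles of −0.47 and 0.46. The subunits thus had the order of their GC content in part, with CCT8 below and CCT3 and CCT7 above the quartiles of their bins. The difference between the Con libraries also moved with GC content, since the median log2 difference of Con replicate 2 from Con replicate 1 was 0.24 in the lowest bin and −0.64 in the highest.

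After a correction of each library along GC content, the log2 fold changes were −0.47 for CCT8, −0.06 for TCP1, 0.20 for CCT6A, 0.25 for CCT4, 0.39 for CCT5 and 0.43 for CCT2. They were 1.44 for CCT3 and 1.50 for CCT7. CCT6A, CCT4 and CCT5 thus lay above 0 under this correction, and CCT8 came nearer to 0. Corrected and without Con replicate 2, an alternative chosen after the data were seen, CCT3 and CCT7 were both at 0.65 and CCT8 was at −0.45. Without Con replicate 1 instead, they were at 2.22 and 2.35, and TCP1 stood at 0.02.

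**Figure D3:**
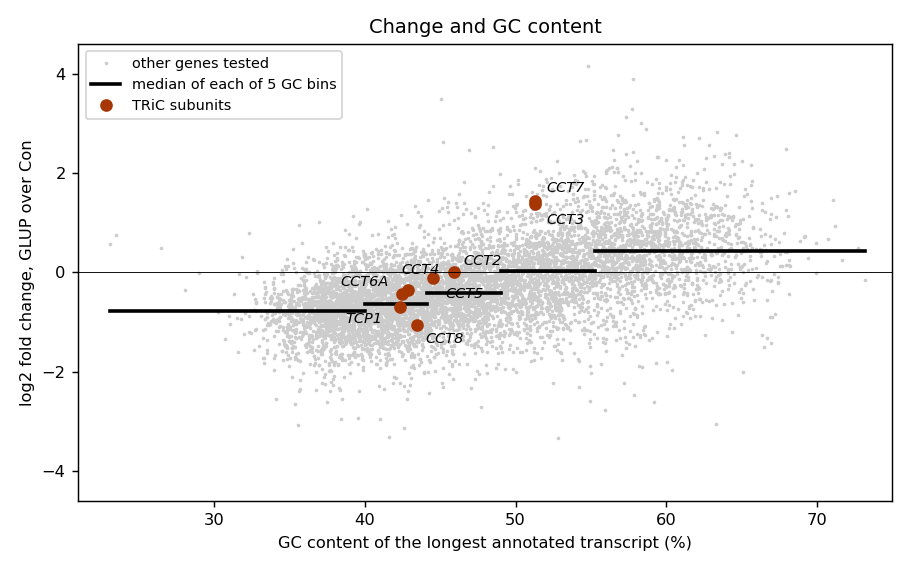
Log2 fold change (GLUP over Con) of each gene tested against the GC content of its longest annotated transcript in percent, with the median of each of 5 GC bins (black) and the TRiC subunits (red-brown). CCT8 lies below the median of its bin of −0.64, and CCT3 and CCT7 lie above the median of theirs of 0.02.

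Within each library, the make-up of the subunit mRNA differed more than its sum. The FPKM of the 8 genes summed to 793 and 563 in Con and to 816 and 736 in GLUP, so the groups overlapped. The sum of CCT3 and CCT7 was 304 and 81.8 FPKM in Con and 442 and 399 FPKM in GLUP. That of the other 6 was 489 and 481 FPKM in Con and 374 and 337 FPKM in GLUP. CCT3 and CCT7 were thus higher and the other 6 together lower in both GLUP libraries. The median FPKM of all genes tested was likewise lower there, at 3.33 and 3.21 in GLUP against 4.59 and 4.24 in Con. With 2 libraries against 2, an exact permutation test cannot give a two-sided p below 0.333, so no test was made of these sums.

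CCT3 and CCT7 made up 38.3% and 14.5% of the summed FPKM in Con and 54.2% and 54.3% in GLUP. CCT8 and TCP1 made up 21.3% and 32.5% in Con and 11.8% and 11.3% in GLUP. The shares hardly differed between the GLUP libraries and differed widely between the Con libraries, where Con replicate 1 lay nearer to GLUP. The ratio of CCT3 to CCT8 was 1.30 and 0.328 in Con and 3.54 and 3.57 in GLUP, whereas the ratio of CCT3 to CCT7 stayed between 1.17 and 1.34 in all 4 libraries. CCT3 had the highest level in Con replicate 1 and in both GLUP libraries, and CCT8 in Con replicate 2. The lowest level belonged to CCT2 in both Con libraries and to TCP1 in both GLUP libraries. The highest subunit exceeded the lowest by 5.23 and 5.43 times in Con and by 9.42 and 9.61 times in GLUP.

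**Figure D4:**
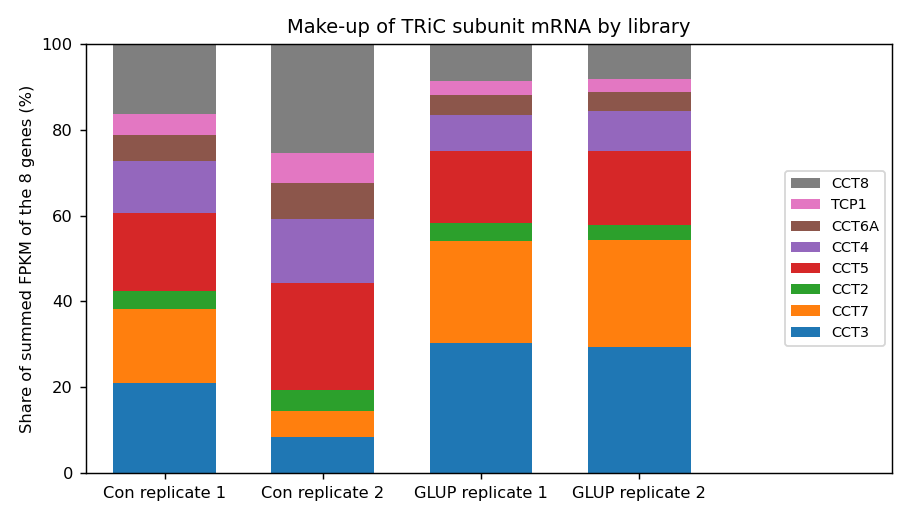
Share of each TRiC subunit gene in the summed FPKM of the 8 genes (percent, stacked bars) in each library. CCT3 and CCT7 (the lowest segments) make up 54.2% and 54.3% in the GLUP libraries and 38.3% and 14.5% in the Con libraries.

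Pairs of subunits were compared by the root mean square distance between their log2(FPKM + 1) profiles over the 4 libraries, after each profile was centred on its own mean. CCT3 and CCT7 were the closest of the 28 pairs, at 0.069, although they are not neighbours in the ring. CCT4 and CCT6A followed at 0.12, CCT2 and CCT5 at 0.13 and TCP1 and CCT6A at 0.13. CCT7 and CCT8, which do lie next to each other in the ring, were the farthest pair at 1.45. In the profiles of CCT3 and CCT7, Con replicate 2 lay farthest from the mean, at −1.59 and −1.69. CCT3 and CCT7 also have the same GC content to 3 digits, 51.3%. The part of this library and of GC content in their likeness was not tested. Outside the complex, the 5 genes closest to the median profile of the subunits were LARP1 (0.027), TM7SF3 (0.028), SDE2 (0.029), ANG (0.030) and ZNF506 (0.031), all at levels between 0.732 and 4.48 FPKM. The closest subunit was CCT4 at 0.070, and 85 genes lay closer than it, so the median profile was not particular to the chaperonin.

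Prefoldin delivers clients to TRiC, and 5 of its 6 subunit mRNAs had a log2 fold change below 0, against 66.7% of all genes, with a median of −0.55. Both GLUP libraries lay below both Con libraries for 2 of them, against 49.7% of all genes, and above for none, against 17.5%. VBP1 had 34.5 and 36.0 FPKM in Con and 17.0 and 17.5 FPKM in GLUP (log2 fold change −0.99, adjusted p = 0.113 from limma). PFDN4 had 50.6 and 127 FPKM in Con and 30.9 and 31.0 FPKM in GLUP (log2 fold change −1.35, adjusted p = 0.138 from limma). VBP1 was uniform within each group, whereas the Con values of PFDN4 lay far apart. PFDN1, PFDN2, PFDN5 and PFDN6 overlapped between the groups, with log2 fold changes of 0.14, −0.43, −0.24 and −0.67. The median of the 6 was −0.23 after GC correction.

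The phosducin-like proteins bind TRiC, and all 3 that were tested were lower in both GLUP libraries, as were 49.7% of all genes, with a median log2 fold change of −1.22. PDCL3 had 39.1 and 90.6 FPKM in Con and 16.8 and 18.4 FPKM in GLUP (log2 fold change −1.70, adjusted p = 0.103 from limma). TXNDC9 had 52.1 and 52.6 FPKM in Con and 20.1 and 23.8 FPKM in GLUP (log2 fold change −1.22, adjusted p = 0.101 from limma). PDCL, which helps to assemble G protein beta subunits, had 1.02 and 2.12 FPKM in Con and 0.445 and 0.607 FPKM in GLUP (log2 fold change −0.72, adjusted p = 0.155 from limma). PDCL2 was listed at 0 in every library. These genes have a low GC content, with a median of 39.0%. After GC correction their median log2 fold change was −0.41, against 0.00 over all genes. Under this correction 1 of the 3 was above 0, against 3792 of 7570 genes.

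Of the 6 genes of the tubulin cofactors and their regulator ARL2, 4 overlapped between the groups, as did 2488 of the 7588 genes tested. The median log2 fold change of the 6 was −0.14. TBCB, which binds alpha tubulin, had 45.8 and 16.3 FPKM in Con and 5.54 and 7.84 FPKM in GLUP (log2 fold change −1.90, adjusted p = 0.104 from limma). ARL2, a small GTPase that acts with the cofactors, had 185 and 77.4 FPKM in Con and 321 and 282 FPKM in GLUP (log2 fold change 1.32, adjusted p = 0.135 from limma). TBCB was thus lower and ARL2 higher in both GLUP libraries, against 49.7% of all genes lower and 17.5% higher. TBCA, the next in size, overlapped with a log2 fold change of −0.30. The prefoldin-like and R2TP genes, which assemble polymerases and other large complexes, had 3 of 7 members lower in both GLUP libraries, a share near the 49.7% of all genes, and 4 overlapping. URI1, RPAP3 and RUVBL2 had the largest log2 fold changes there, at −1.53, −1.32 and 1.17 (adjusted p = 0.10, 0.10 and 0.299 from limma), and the median of the list was 0.02.

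The actin and tubulin genes, whose products are the main clients of TRiC, were higher with GLUP throughout. Of the 12 listed, 11 were tested, and for all 11 both GLUP libraries lay above both Con libraries, against 17.5% of all genes. Their median log2 fold change was 1.60, within a range of 1.22 to 2.67. ACTB, beta actin, had 524 and 323 FPKM in Con and 1686 and 929 FPKM in GLUP (log2 fold change 1.60, adjusted p = 0.101 from limma). TUBA1B, an alpha tubulin, had 819 and 258 FPKM in Con and 3342 and 2559 FPKM in GLUP (log2 fold change 2.67, adjusted p = 0.10 from limma). None of the 11 passed the adjusted threshold, with adjusted p between 0.10 and 0.175 (limma), and 10 had an unadjusted p under 0.05, against 31.7% of all genes.

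The remaining clients had log2 fold changes of 2.62 for TUBA1A, 1.86 for TUBA1C, 1.73 for ACTG1, 1.63 for TUBG1, 1.52 for TUBB2A, 1.36 for TUBB4B, 1.26 for TUBB2B, 1.22 for TUBB and 1.22 for TUBB3, while TUBB6 stayed at or below 0.186 FPKM. Near-identical copies among actins and tubulins can share reads, so values of single members are uncertain. Their median GC content was 53.7%, and after GC correction their median log2 fold change was 1.34, with all 11 above 0. It was 1.11 without Con replicate 2 and 1.95 after centring, again with all 11 above 0. Of all genes, 3792 of 7570 were above 0 after GC correction, 2112 of 7588 without Con replicate 2 and 3750 of 7588 after centring. The medians over all genes in these settings were 0.00, −0.34 and −0.01. Summed over the 12 genes, the clients had 2091 and 821 FPKM in Con and 6753 and 4792 FPKM in GLUP. Set against the summed FPKM of the 8 subunits, this gave 2.64 and 1.46 in Con and 8.28 and 6.51 in GLUP, so the ratio was higher in both GLUP libraries.

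**Figure D5:**
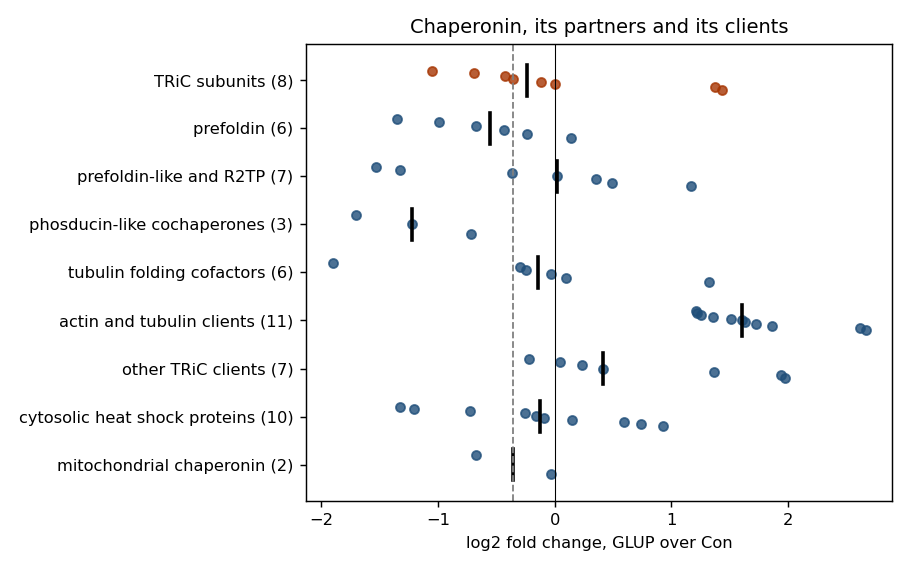
Log2 fold change (GLUP over Con) of each gene tested in the TRiC subunits, their cochaperones, clients and other chaperones (1 point a gene, number tested in brackets, black bar for the median of a list, dashed line for the median of all genes tested of −0.36). The 11 actin and tubulin genes lie between 1.22 and 2.67, and the 3 phosducin-like genes lie between −1.70 and −0.72.

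Other clients were less uniform. Of the 7 tested among 12, 1 had a log2 fold change below 0, against 66.7% of all genes, and 4 were higher in both GLUP libraries, against 17.5% of all genes, with a median of 0.41. MLST8 had 6.37 and 1.05 FPKM in Con and 20.9 and 9.61 FPKM in GLUP (log2 fold change 1.97, adjusted p = 0.128 from limma). PLK1 had 5.04 and 0.357 FPKM in Con and 11.4 and 8.81 FPKM in GLUP (log2 fold change 1.94, adjusted p = 0.133 from limma). CDC20 had 69.4 and 19.5 FPKM in Con and 103 and 91.8 FPKM in GLUP (log2 fold change 1.37, adjusted p = 0.184 from limma). For these genes, as for CCT3 and CCT7, Con replicate 2 was the lowest library. Without it 4 of the 7 had a log2 fold change above 0, against 2112 of the 7588 genes tested. The median of the 7 was then 0.16, against −0.34 over all genes.

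Among genes related to TRiC by sequence, MKKS, a chaperonin-like protein of Bardet-Biedl syndrome, had 9.92 and 13.2 FPKM in Con and 5.01 and 5.46 FPKM in GLUP (log2 fold change −1.0, adjusted p = 0.112 from limma). CCT6B, the testis form of the zeta subunit, stayed at or below 0.729 FPKM, and BBS10, BBS12 and CCT8L2 at or below 0.431 FPKM. Of the 14 pseudogenes named for the subunits, all but CCT6P1 had a mean below 1 FPKM. The exons of CCT5 overlap a long non-coding RNA, ENSG00000271980, over 1734 bases, but that gene was at or below 0.0353 FPKM in all libraries.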

How the data were processed

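RNA-seq was made from 2 Con and 2 GLUP samples of HGC-27 cells, mapped to groups by their titles. The authors deposited FPKM values, 1 row per gene and 1 column per library. The submitters' processing notes name HISAT2, Cufflinks, RSEM and the build GRCh38.p10, without their roles or versions, whereas the row identifiers have the form used for annotation lifted to GRCh37. The test and the use of strand in counting are not given in the sources used here. FPKM divides by library totals, so a few abundant genes can shift all others, and its values carry no depth. The file has 62492 rows, of which 49 are second copies of pseudoautosomal genes, and rows of 1 identifier were summed to 62443 genes. Names, positions (GRCh37), exons and GC content came from GENCODE v44 lifted to GRCh37, which named 99.5% of the identifiers. With their version only 9398 rows matched, so the release differs from that of the authors. Promoter windows came from RefSeq (GRCh38.p14) and were searched on both strands.

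Genes whose mean over the libraries reached 1 FPKM were tested on log2(FPKM + 1) with limma 3.58.1 in R 4.3.3, with a mean-variance trend, and p-values were adjusted over all 7588 genes by the method of Benjamini and Hochberg, with 0.05 as the threshold. The pseudocount of 1 understates the fold change of low genes. Alternatives were a pseudocount of 0.1, every gene above 0, a minimum mean of 5 FPKM, quantile normalization, libraries centred on their medians, a replicate block, no trend, GC correction (lowess, span 0.3) with and without the block, the ratio of mean FPKM, and leaving out each library. The GC correction without a Con library was added after the data were seen. The fit was tested on simulated data. Subunits, the tested prefoldin, actin and tubulin genes, and the 3 largest log2 fold changes of other lists were named, and beyond this rule cell markers, genes of low level and TBCA were named after their values were seen. The members and lists were chosen with earlier results of these data known. No set test was made.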

Additional observations from a re-analysis of the deposited data

How the results depend on the processing

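CCT3, CCT7 and CCT8 kept the direction of their log2 fold change under all alternatives. TCP1 was at 0.020 with GC correction without Con replicate 1 and below 0 otherwise. CCT5 was above 0 when centred on the median (0.22), under quantile normalization (0.10), with GC correction (0.39) and with it without Con replicate 1 (0.44) or 2 (0.35). CCT4 and CCT6A were above 0 with GC correction (0.25 and 0.20) and with it without Con replicate 1 (0.42 and 0.28) or 2 (0.083 and 0.12). CCT2, at 0.00, ranged from −0.16 to 0.17 when single libraries were left out. It was −0.13 without Con replicate 2 and −0.16 without GLUP replicate 1. CCT2 moved further when centred (0.35), under quantile normalization (0.36) and with GC correction (0.43). With GC correction it was 0.57 without Con replicate 1 and 0.29 without Con replicate 2.

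The count of subunits with a log2 fold change below 0 was 5, and 4 when centred or under quantile normalization. It was 6 without Con replicate 2 or without GLUP replicate 1, and 2 with GC correction. With GC correction it was 1 without Con replicate 1 and 2 without Con replicate 2. The count of subunits lower in both GLUP libraries was 5, and 2 after centring, 3 under quantile normalization and 1 with GC correction. With GC correction it was 1 and 2 without Con replicate 1 and 2. Without GLUP replicate 1, 6 subunits were below both Con libraries. CCT3 and CCT7 were above Con in every fit. CCT2 and CCT5 joined them after centring, CCT2 under quantile normalization, and CCT2, CCT4 and CCT5 with GC correction. Of all genes, 3792 of 7570 had a log2 fold change above 0 with GC correction. When centred it was 3750 of 7588, and without Con replicate 2 it was 2112 of 7588. Shares of all genes were not taken under the other settings, nor for genes lower or higher in both GLUP libraries. The median over the subunits was −0.24, and 0.11 when centred, −0.00056 under quantile normalization, 0.32 with GC correction with or without the block, and 0.43 and 0.20 with it without Con replicate 1 and 2. The span of their log2 fold changes was 2.49, and 3.53 and 1.44 without Con replicate 1 and 2. It was 1.975 with GC correction, with or without the block. With GC correction it was 2.84 without Con replicate 1 and 1.11 without Con replicate 2. Over all genes, 2 passed the adjusted threshold (limma). There were 1 with a pseudocount of 0.1, 0 when every gene above 0 was kept, 0 with a minimum mean of 5 FPKM, 1 when centred, 1 under quantile normalization, 0 without the mean-variance trend and 0 with GC correction, while 3744, 1174, 2378 and 1388 genes had an unadjusted p under 0.05 in the 4 settings with 0 (limma). Leaving out single libraries gave between 4 and 4038 genes, and GC correction without Con replicate 1 or 2 gave 2406 and 189. The cause of these shifts was not tested. Shares of the summed FPKM were taken from the deposited values in each library and have no alternative.

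Nothing ties equal replicate numbers to a shared culture, and the deviations of the first replicates from their group means correlated at 0.126. With the replicate number as a block, the fold changes were the same and 2 genes passed. GC correction with the replicate block gave 16 genes over all, 2 subunits below 0, 1 lower in both GLUP libraries, and 0.25, 0.39 and 0.20 for CCT4, CCT5 and CCT6A. No subunit passed under either. Depth is unknown and n is 2 per group, which limits every value.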

Other observations

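Of 12 cytosolic heat shock genes 10 were tested, and both GLUP libraries lay above both Con libraries for 3 and below for 4, against 17.5% and 49.7% of all genes, with a median log2 fold change of −0.13, against −0.36 over all genes. HSPH1, a nucleotide exchange factor for HSP70, had 3.95 and 7.74 FPKM in Con and 2.13 and 1.20 FPKM in GLUP (log2 fold change −1.33, adjusted p = 0.107 from limma). HSPB1, a small heat shock protein, had 358 and 190 FPKM in Con and 107 and 119 FPKM in GLUP (log2 fold change −1.20, adjusted p = 0.125 from limma). STIP1, which links HSP70 to HSP90, had 29.0 and 11.8 FPKM in Con and 38.8 and 34.1 FPKM in GLUP (log2 fold change 0.93, adjusted p = 0.224 from limma). After GC correction the median of the 10 was 0.17.

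The mitochondrial chaperonin HSPD1, the closest counterpart of TRiC in another compartment, had 176 and 163 FPKM in Con and 196 and 141 FPKM in GLUP, so the groups overlapped (log2 fold change −0.03, adjusted p = 0.959 from limma). Its partner HSPE1 had 2140 and 4410 FPKM in Con and 1831 and 2020 FPKM in GLUP (log2 fold change −0.68, adjusted p = 0.267 from limma). The heat shock factor HSF2 had 1.78 and 1.64 FPKM in Con and 0.823 and 0.587 FPKM in GLUP (log2 fold change −0.67, adjusted p = 0.125 from limma), and HSF1 was at or below 0.431 FPKM.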
